A study of Mus musculus with 8 samples.

Results

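The Schlafen genes form a family found in mammals, and 7 mouse members, Slfn1, Slfn2, Slfn3, Slfn4, Slfn5, Slfn8 and Slfn9, were followed here in natural killer (NK) cells, the innate lymphocytes that kill tumour and virus-infected cells. They were chosen by name and make up 7 of the 54838 gene identifiers counted in each library. RNA was sequenced from NK cells of the mouse spleen in 2 groups of 4 libraries. The teNK group came from MMTV-PyMT mice, in which the MMTV promoter drives the polyoma virus middle T oncogene in the mammary gland; the animals grow mammary tumours, and the series design describes them as bearing tumours. The hNK group came from healthy wild-type mice of the FVB/n strain. All cells were sorted from spleen as CD45+, CD49b+ and CD3-, and all were kept for 12 to 16 h in medium with cytokines before RNA extraction, so neither group shows cells straight from the animal. No strain is stated for the MMTV-PyMT mice, so strain and tumour cannot be told apart, and neither ages nor animals per library nor the cytokines are stated. Nothing in the labels says that replicates came from separate animals, and the p-values therefore measure no more than how far the libraries of a group scatter, part or all of which may be technical. The labels of the teNK libraries alone mention 1 library run in several flow cell lanes, so lane layout and group cannot be told apart either.

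As background, Schlafen proteins share an N-terminal core, and the mouse genes are sorted by the length of their protein into a short group (Slfn1 and Slfn2), an intermediate group (Slfn3 and Slfn4) and a long group with a helicase-like C-terminal part (Slfn5, Slfn8, Slfn9 and Slfn14 among them). Many members are induced by type I interferon, and several change when T cells are activated. The best studied mouse member, Slfn2, keeps resting T cells quiescent, and mice with the elektra mutation in it lose T cells that fail to stay quiescent. Slfn2 protein has also been described as binding transfer RNAs (tRNAs) and guarding them from cleavage in activated T cells, whereas human SLFN11 and mammalian SLFN14 cut RNA.

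The 7 genes lie in one cluster on chromosome 11 (GRCm38 coordinates from the GENCODE M21 annotation). Slfn5 (ENSMUSG00000054404, chr11:82951349-82964840, plus strand) stands at one end and is followed by Slfn9 (ENSMUSG00000069793, chr11:82978390-82991830, minus strand) and Slfn8 (ENSMUSG00000035208, chr11:83002158-83020810, minus strand). Next come Slfn2 (ENSMUSG00000072620, chr11:83065112-83070678), Slfn1 (ENSMUSG00000078763, chr11:83116849-83122670), Slfn4 (ENSMUSG00000000204, chr11:83175186-83190216) and Slfn3 (ENSMUSG00000018986, chr11:83191330-83215154), all on the plus strand. The pseudogene Slfn10-ps (chr11:83028130-83040042, minus strand) sits between Slfn8 and Slfn2, and Slfn14 (chr11:83275110-83286726, minus strand) lies beyond Slfn3.

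The 250 bases before a RefSeq start are shown for the 5 members with enough reads to be tested. They are given on the strand of the gene, 5′ to 3′ (GRCm38.p6). They were chosen because Slfn8 and Slfn9 are alike there and differed in their change, and because Slfn5, Slfn2 and Slfn3 changed. Slfn8 has a further RefSeq start, whose window (chr11:83020723-83020972) is not shown. All 7 members were matched in the RefSeq promoter table. Capitals mark each match to GAAANNGAA, the core of the interferon-stimulated response element, or its reverse complement. The windows are chr11:83020811-83021060 for Slfn8 (minus strand), chr11:82991831-82992080 for Slfn9 (minus strand), chr11:82951852-82952101 for Slfn5 (plus strand), chr11:83064862-83065111 for Slfn2 (plus strand) and chr11:83191080-83191329 for Slfn3 (plus strand).
Slfn8: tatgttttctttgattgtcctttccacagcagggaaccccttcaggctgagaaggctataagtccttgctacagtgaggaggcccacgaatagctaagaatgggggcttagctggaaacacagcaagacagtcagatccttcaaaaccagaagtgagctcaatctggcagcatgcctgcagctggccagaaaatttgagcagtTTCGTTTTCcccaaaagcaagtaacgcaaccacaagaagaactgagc
Slfn9: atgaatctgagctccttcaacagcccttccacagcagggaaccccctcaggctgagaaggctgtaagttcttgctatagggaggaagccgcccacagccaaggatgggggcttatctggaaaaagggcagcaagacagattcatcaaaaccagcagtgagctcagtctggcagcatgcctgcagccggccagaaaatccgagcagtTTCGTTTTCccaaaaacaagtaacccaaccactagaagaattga
Slfn5: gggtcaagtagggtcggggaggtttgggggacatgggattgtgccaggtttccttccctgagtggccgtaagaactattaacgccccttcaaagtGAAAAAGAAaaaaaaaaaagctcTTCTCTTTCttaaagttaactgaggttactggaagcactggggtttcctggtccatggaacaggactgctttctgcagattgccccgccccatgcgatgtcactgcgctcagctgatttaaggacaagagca
Slfn2: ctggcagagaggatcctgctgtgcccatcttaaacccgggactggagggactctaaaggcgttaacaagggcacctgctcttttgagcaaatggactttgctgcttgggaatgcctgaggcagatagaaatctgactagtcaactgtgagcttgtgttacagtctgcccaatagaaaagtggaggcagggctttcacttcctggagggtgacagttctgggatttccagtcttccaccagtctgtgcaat
Slfn3: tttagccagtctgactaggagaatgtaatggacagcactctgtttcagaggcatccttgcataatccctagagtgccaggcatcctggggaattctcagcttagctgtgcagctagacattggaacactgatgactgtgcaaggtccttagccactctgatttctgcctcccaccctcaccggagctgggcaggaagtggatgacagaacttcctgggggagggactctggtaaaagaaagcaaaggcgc

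Slfn8 and Slfn9 were identical at 210 of 262 aligned columns of these windows (80.2%), while the next most alike pair of members, Slfn3 and Slfn8, was identical at 53.4%. GAAANNGAA, searched on both strands, was found in 3 of the 7 members. In Slfn8 the match runs from position -47 to -39 relative to the start used here, in Slfn9 from -44 to -36, and both read TTCGTTTTC. Relative to the further start of Slfn8, the same letters lie from -135 to -127. Slfn5 had 2 matches, GAAAAAGAA from -155 to -147 and TTCTCTTTC from -132 to -124. Of all 32851 windows of this length in the table, 7.13% held GAAANNGAA, and of the 27025 genes they belong to, 8.18% did. The matches of Slfn8 and Slfn9 are the same letters in windows that are alike, so they may not be separate occurrences. The STAT site TTCNNNGAA was in 0 of the 7 members and in 8.13% of all genes. The AP-1 site TGANTCA was in 1 member, Slfn4 (from -34 to -28), and in 7.82% of all genes. None of these matches overlapped another motif, and each is a run of letters in the window, not a measured site.

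Each library held between 13111043 and 16209895 reads on genes in teNK and between 5202131 and 12419324 in hNK. Levels are given as CPM, a gene's count per 1000000 reads on tested genes after TMM scaling, a correction for differences in composition between libraries. The first principal component separated the groups and carried 77.0% of the variance, and correlations of log2 CPM were at least 0.992 within teNK and at least 0.982 within hNK, against at most 0.940 between the groups. NK cell markers defined the cells in both groups. Over 10 markers, summed levels were 8453 to 9225 CPM in teNK and 4512 to 5220 CPM in hNK, and 9 were called higher and 1 lower. For this and the other marker lists, the shares over all genes tested were 26.4% higher and 25.6% lower. Of 8 T cell markers, 3 were tested and 1 was called higher, with sums of 25.3 to 34.1 CPM in teNK and 18.5 to 43.4 CPM in hNK, and Cd8a and Cd5 had no read in hNK. All 8 B cell markers were called higher in teNK, with sums of 39.2 to 60.6 CPM against 0.715 to 5.44 CPM in hNK. They passed the filter on low counts through their teNK reads, so a call lower was not open to them. All 8 platelet and megakaryocyte markers were called higher as well, with sums of 143.9 to 249.4 CPM in teNK and 17.98 to 41.7 CPM in hNK. Of 10 macrophage, monocyte and neutrophil markers 1 was tested and called higher (sums of 7.30 to 15.8 CPM in teNK and 0.165 to 0.915 CPM in hNK), with Ly6g at 0 in both groups and S100a8, S100a9, Mpo and Elane at 0 in hNK. The part of these other cells in any Schlafen result was not tested, and in bulk RNA fewer cells of a type and less RNA per cell cannot be told apart.

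Slfn8 and Slfn5 rose in teNK, Slfn3 and Slfn2 fell, Slfn9 was not called, and Slfn1 and Slfn4 had too few reads to be tested. Of the 5 members that passed the filter on low counts, 2 were called higher and 2 lower at an adjusted p under 0.05 in edgeR's quasi-likelihood test with Benjamini-Hochberg adjustment over 13903 genes. Across all of those genes 26.4% were called higher and 25.6% lower, so calls on 4 members are read one by one and not as a property of the family. That is 3665 genes higher and 3557 lower, and scaling by library totals alone gave 2709 higher and 5114 lower, with the same calls on the members. For 3 members, Slfn8, Slfn5 and Slfn3, the CPM of the groups did not overlap, which was the case for 46.5% of all genes tested. Slfn5 passed the filter through the teNK libraries, as it had 6, 18, 4 and 6 reads in hNK replicates 1 to 4. A gene at its hNK level in both groups might not have been tested, so its call adds no weight to these counts. The median log2 fold change over all genes tested was -0.02.

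**Figure D1:**
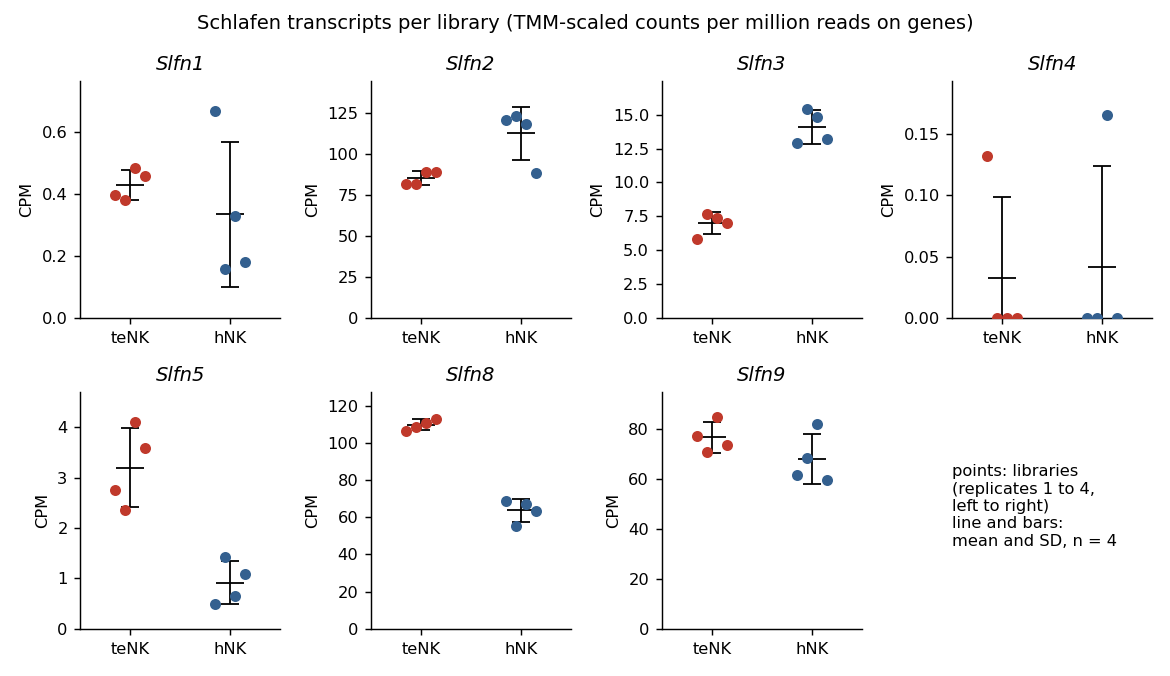
Level of each of the 7 members in CPM (vertical axes, starting at 0 and scaled per gene) in the 4 teNK and 4 hNK libraries; points are libraries, the line and bars are the mean and SD. The teNK points lie wholly above the hNK points for Slfn5 and Slfn8 and wholly below for Slfn3, while 1 hNK library falls among the teNK points for Slfn2.

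Among the long members, Slfn8 gave the clearest rise. It is an interferon-regulated family member that changes during T cell activation. Its level was 106.5, 108.6, 110.9 and 113.0 CPM in teNK replicates 1 to 4, against 68.6, 55.3, 67.1 and 63.4 CPM in hNK replicates 1 to 4. The lowest teNK library thus stood well above the highest hNK library, and the teNK libraries were closer together. The means were 109.7 ± 2.80 CPM in teNK and 63.6 ± 5.93 CPM in hNK (SD, n = 4 each). The log2 fold change was 0.79 ± 0.07 (SE; 95% interval 0.64 to 0.94), a 1.73-fold rise with an adjusted p of 9.86e-08 in edgeR's quasi-likelihood test.

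Slfn9, the neighbour of Slfn8 on the same strand, with a similar promoter window, was not called. Its level was 77.5, 71.1, 85.1 and 73.5 CPM in teNK replicates 1 to 4, against 61.9, 68.5, 82.0 and 59.8 CPM in hNK replicates 1 to 4. The groups overlapped, because hNK replicate 3 stood above 3 of the 4 teNK libraries. Means were 76.8 ± 6.11 CPM in teNK and 68.0 ± 10.005 CPM in hNK (SD, n = 4 each), with a log2 fold change of 0.18 ± 0.09 (SE; 95% interval -0.01 to 0.37) and an adjusted p of 0.108 in edgeR's test. That call rested on 1 library: without hNK replicate 3 the change was 0.27 on the log2 scale (adjusted p 0.00982), which passed the threshold.

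Slfn5, whose human counterpart is a nuclear protein, was the member with the highest fold and one of the lowest levels. It had 42, 37, 51 and 47 reads in teNK replicates 1 to 4, against 6, 18, 4 and 6 reads in hNK replicates 1 to 4. In CPM these were 2.76, 2.35, 4.10 and 3.59 in teNK, against 0.499, 1.43, 0.660 and 1.08 in hNK. Every teNK library was above every hNK library, although 3 of the hNK values rested on 6 reads or fewer. The means were 3.20 ± 0.790 CPM in teNK and 0.918 ± 0.421 CPM in hNK (SD, n = 4 each). The log2 fold change was 1.75 ± 0.32 (SE, 95% interval 1.07 to 2.43), a 3.37-fold rise. Slfn5 entered edgeR's test through its teNK reads, so no p is given for it here. Its SE and interval come from the same test and are given no weight as support for a rise. With at least 10 reads required in every library it was not tested. Pooled over libraries, 177 teNK reads against 34 hNK reads gave a ratio per read on genes of 3.06, with an exact 95% interval of 2.11 to 4.56 that covers counting error only. The summed B cell markers and the summed platelet markers given above were also higher in teNK, each by more CPM than Slfn5, and their part in the rise of Slfn5 was not tested. The antisense gene Slfn5os, which overlaps Slfn5 on the opposite strand, had 0 reads in all 8 libraries.

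The short member Slfn2, the quiescence and tRNA-guarding gene, was lower in teNK. Its level was 81.5, 81.7, 89.1 and 89.3 CPM in teNK replicates 1 to 4, against 121.0, 122.9, 118.4 and 88.5 CPM in hNK replicates 1 to 4. Of the hNK libraries 3 stood far above all teNK libraries, and hNK replicate 4 lay within the teNK range. Slfn2 averaged 85.4 ± 4.42 CPM in teNK and 112.7 ± 16.2 CPM in hNK (SD, n = 4 each), and its log2 fold change was -0.41 ± 0.09 (SE; 95% interval -0.59 to -0.23) with an adjusted p of 0.000852 in edgeR's test. Leaving out hNK replicate 4 gave a change of -0.50 on the log2 scale.

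Slfn3, an intermediate member linked to T cell activation in mice, fell the most. Its level was 5.86, 7.68, 7.39 and 7.03 CPM in teNK replicates 1 to 4, against 12.9, 15.4, 14.8 and 13.2 CPM in hNK replicates 1 to 4. All teNK libraries lay below all hNK libraries. The means were 6.99 ± 0.801 CPM in teNK and 14.1 ± 1.23 CPM in hNK (SD, n = 4 each). The log2 fold change was -1.01 ± 0.13 (SE; 95% interval -1.29 to -0.74), which makes Slfn3 2.02-fold lower in teNK, with an adjusted p of 5.66e-06 in edgeR's test.

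Slfn1, the other short member, and Slfn4, an intermediate member known from macrophages and other myeloid cells, were close to the limit of these libraries. Slfn1 had 6 reads in each of the 4 teNK libraries, against 8, 2, 2 and 1 reads in hNK replicates 1 to 4. Pooled, its 24 teNK reads against 13 hNK reads gave a ratio per read on genes of 1.09 (exact 95% interval 0.532 to 2.32, counting error only), and a difference was not detectable at this depth. Slfn4 had 2, 0, 0 and 0 reads in teNK replicates 1 to 4, against 0, 0, 1 and 0 reads in hNK replicates 1 to 4. Its ratio of 1.18 had an exact interval of 0.0613 to 69.4. A count of 0 allows up to 3 reads, which was 0.191 to 0.241 CPM in the teNK libraries and 0.238 to 0.542 CPM in the hNK libraries.

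**Figure D2:**
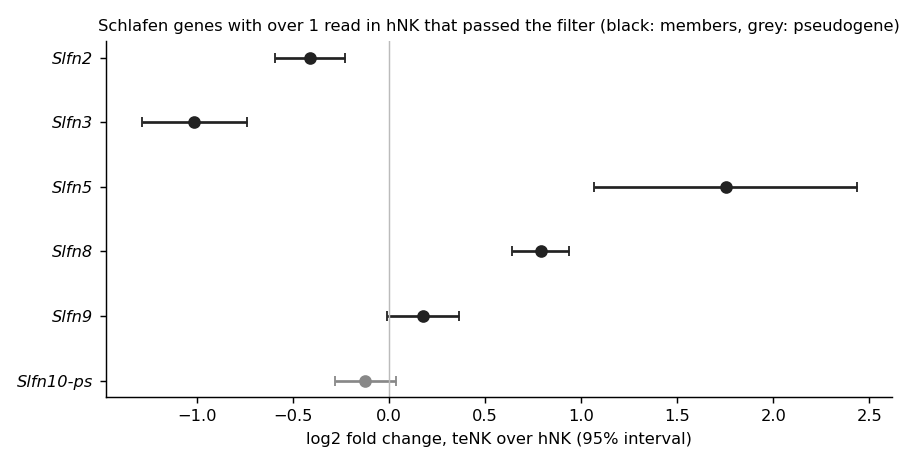
Log2 fold change, teNK over hNK (horizontal axis), of the 5 members that passed the filter (black) and of the pseudogene Slfn10-ps (grey); bars are 95% intervals from edgeR's quasi-likelihood fit on 4 libraries per group. The interval of Slfn8 lies above 0, those of Slfn2 and Slfn3 below it, and those of Slfn9 and Slfn10-ps include it. Slfn5 entered the fit through its teNK reads, so the place of its interval above 0 is given no weight.

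Compared per length, as CPM per kb of merged exons, Slfn2 was the leading member in both groups, at 51.3 ± 2.66 CPM per kb in teNK and 67.7 ± 9.76 in hNK (SD, n = 4 each). Slfn8 was next, with 26.8 ± 0.685 CPM per kb in teNK and 15.6 ± 1.45 in hNK, ahead of Slfn9 with 12.9 ± 1.02 in teNK and 11.4 ± 1.68 in hNK. Slfn3 followed with 2.05 ± 0.235 CPM per kb in teNK and 4.13 ± 0.361 in hNK. Slfn5 had 0.506 ± 0.125 CPM per kb in teNK and 0.145 ± 0.0665 in hNK, and Slfn1 had 0.230 ± 0.0262 in teNK and 0.179 ± 0.125 in hNK. In teNK no neighbours in this order overlapped between libraries. In hNK, Slfn8 and Slfn9 overlapped, as did Slfn1 and Slfn5, which stood in the opposite order there.

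The summed level of the 7 members was 274.6, 271.7, 297.0 and 286.9 CPM in teNK replicates 1 to 4, against 265.5, 263.8, 283.5 and 226.2 CPM in hNK replicates 1 to 4. These sums overlapped between the groups, with means of 282.6 ± 11.7 CPM in teNK and 259.8 ± 24.1 CPM in hNK (SD, n = 4 each). Within the sum, Slfn8 took 37.3% to 40.0% of the members' reads in the teNK libraries, against 21.0% to 28.035% in the hNK libraries. Slfn2 took 29.7% to 31.1% in teNK and 39.1% to 46.6% in hNK. Slfn8 was therefore the member with the most reads in each teNK library, and Slfn2 in each hNK library. The share of Slfn9 overlapped between the groups, at 25.6% to 28.6% in teNK and 23.3% to 28.9% in hNK. Slfn3 held 2.13% to 2.83% of the reads in teNK and 4.85% to 5.84% in hNK, and Slfn5 held 0.864% to 1.38% in teNK and 0.188% to 0.542% in hNK.

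**Figure D3:**
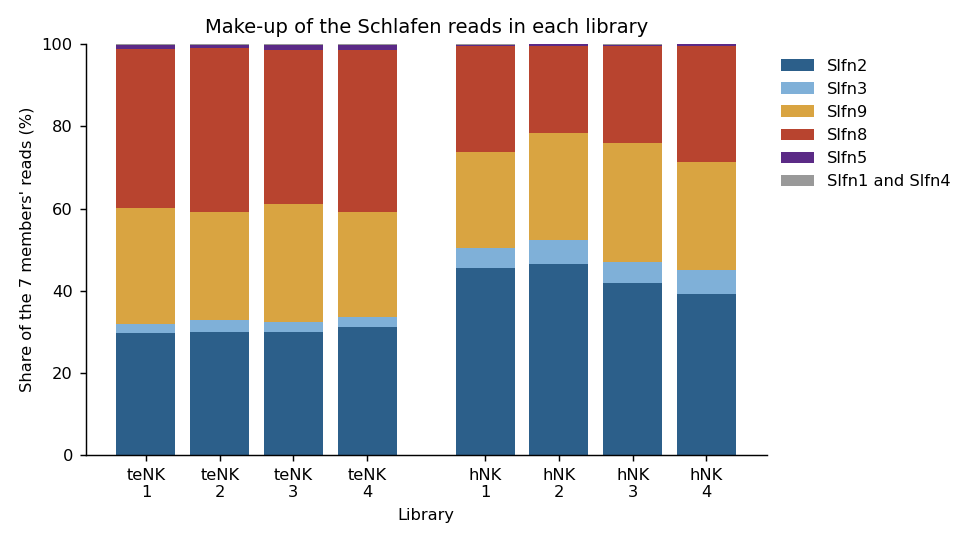
Share of the reads of all 7 members (vertical axis, %) taken by each member in each of the 8 libraries; Slfn1 and Slfn4 are drawn together. The Slfn8 segment covers 37.3% to 40.0% of the bar in teNK libraries and 21.0% to 28.035% in hNK libraries, and the Slfn2 segment is the longest in all hNK libraries.

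The ratio of 2 members within a library does not depend on how libraries are scaled to each other. Slfn8 had 1.29 reads per read of Slfn2 in teNK (geometric mean), against 0.568 in hNK. On the log2 scale this ratio was 0.36 ± 0.04 in teNK and -0.82 ± 0.27 in hNK (SD, n = 4 each), a difference of 1.18, and the groups did not overlap. Of the 6 pairs with at least 10 reads in every library, Slfn8 over Slfn3 had the largest difference, at 3.97 ± 0.16 in teNK and 2.17 ± 0.24 in hNK, a 3.49-fold difference in the ratio. The neighbours Slfn9 and Slfn8 also moved apart: Slfn9 over Slfn8 was -0.52 ± 0.12 in teNK and 0.09 ± 0.24 in hNK, a difference of -0.61. The lower members differed as well, with Slfn2 over Slfn3 at 3.61 ± 0.16 in teNK and 2.99 ± 0.20 in hNK. Slfn9 over Slfn2 differed by 0.57 and Slfn9 over Slfn3 by 1.19. All 6 pairs of members with at least 10 reads in every library were compared, and each gave a two-sided exact permutation p of 0.0286, the smallest that 4 against 4 libraries can give, and 0.0286 after Benjamini-Hochberg adjustment over the 6 pairs. These ratios come from 4 genes and are not separate results, and the CPM of 46.5% of all single genes did not overlap between the groups either; no such share was computed for pairs of other genes. Leaving out any 1 library kept the difference in Slfn8 over Slfn2 between 1.07 and 1.29 and that in Slfn9 over Slfn8 between -0.69 and -0.54.

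**Figure D4:**
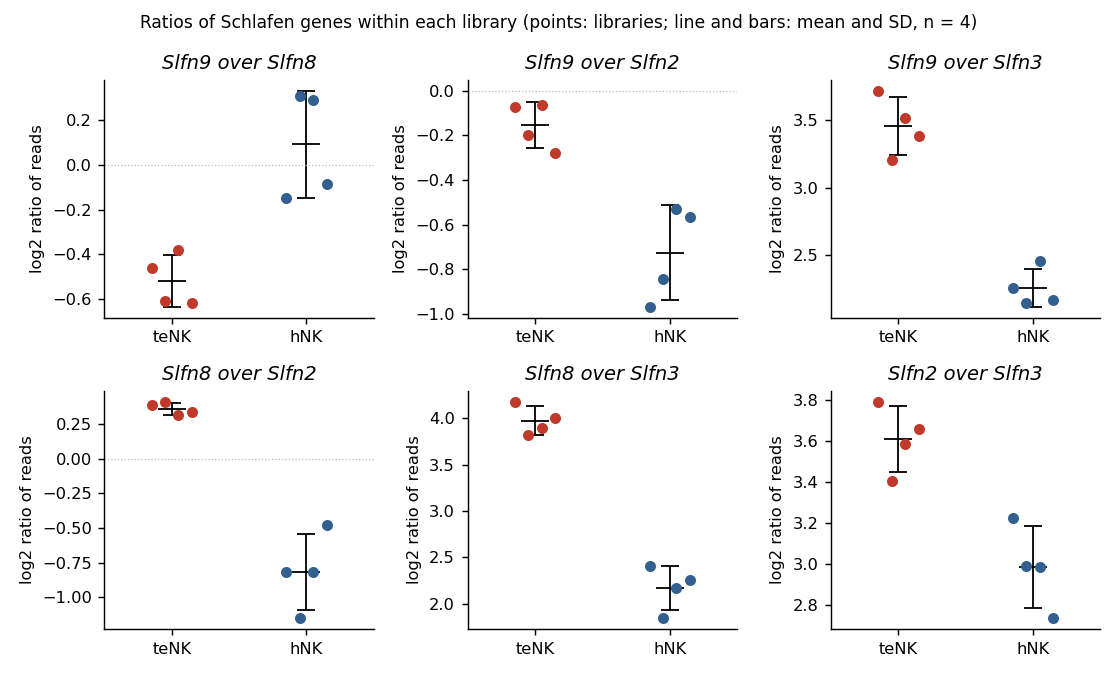
Log2 ratio of reads of 2 members within each library (vertical axes, not starting at 0, with 0 dotted where it is in range) for the 6 pairs with at least 10 reads in every library; points are libraries, the line and bars the mean and SD (n = 4). In each panel the teNK points lie wholly on one side of the hNK points, by a difference of 1.80 in Slfn8 over Slfn3 and of -0.61 in Slfn9 over Slfn8.

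Sequence shared between members can blur their counts. Of all stretches of 50 bases in its transcripts, Slfn8 shared 14.6% with another gene, mostly Slfn10-ps and Slfn9, and Slfn9 shared 11.9%, mostly with Slfn10-ps and Slfn8. The share was 16.0% for Slfn3, with Slfn4 first, 11.3% for Slfn4, 11.1% for Slfn5, mostly with its antisense gene Slfn5os, 4.27% for Slfn2 and 0.61% for Slfn1. With stretches of 75 bases these were 8.22% for Slfn5, 6.99% for Slfn8, 6.78% for Slfn3 and 5.90% for Slfn9. Reads from such stretches cannot be assigned with certainty, and values for Slfn5, Slfn8, Slfn9, Slfn3 and Slfn4 carry that uncertainty. For Slfn5, 467 of its 700 shared stretches of 50 bases match Slfn5os, which overlaps it on the opposite strand. The libraries mark the strand, but the strand setting of the counting is not given, so whether strand separated such reads is not known. No read length is stated, and the reference genome is that of another strain than FVB/n, so the effect of strain differences on these counts was not tested.

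Among the other Schlafen genes, Slfn10-ps is a pseudogene of the long group. It had 56.1, 56.6, 56.5 and 54.9 CPM in teNK replicates 1 to 4, against 70.7, 57.0, 57.2 and 57.8 CPM in hNK replicates 1 to 4. Although all teNK libraries were below all hNK libraries, 3 of the hNK libraries were close by, and the log2 fold change of -0.12 ± 0.08 (SE) had an adjusted p of 0.190 in edgeR's test. It was called lower when library totals alone were used for scaling. Slfn14, an endoribonuclease gene known from platelets and red cells, had 16, 24, 16 and 15 reads in teNK replicates 1 to 4, against 1, 0, 0 and 0 reads in hNK replicates 1 to 4. The pooled 71 reads against 1 gave a ratio per read on genes of 41.8, with an exact 95% interval of 7.26 to 1673 for counting error. Slfn14 passed the filter on low counts through the teNK libraries alone, so no p is given for it. The summed platelet markers were also higher in teNK, at 143.9 to 249.4 CPM against 17.98 to 41.7 CPM in hNK. Their part in the difference in Slfn14 was not tested. Slfnl1, a Schlafen-like gene on another chromosome, had 11 reads in teNK and 8 in hNK.

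The interferon pathway was examined because it controls many Schlafen genes. Of 17 tested genes for interferon receptors, kinases and transcription factors (18 listed), 10 were called higher and 2 lower, with a median log2 fold change of 0.34. The shares over all genes tested were 26.4% higher and 25.6% lower. Irf7, the factor that amplifies type I interferon responses, averaged 70.4 ± 4.70 CPM in teNK and 19.0 ± 1.44 CPM in hNK (SD, n = 4 each) and rose 3.71-fold, and Irf8 rose 5.48-fold. Socs1, a feedback inhibitor of cytokine signalling, fell by 1.73 on the log2 scale, to 26.4 ± 2.14 CPM in teNK against 87.8 ± 3.99 CPM in hNK. Scaling by upper quartile gave 4 genes of this list lower, and scaling by library totals alone gave 5.

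Of 25 tested interferon-stimulated genes (30 listed), 15 were called higher and 4 lower, with a median log2 fold change of 0.81. Over all genes tested, 26.4% were called higher and 25.6% lower. Genes with few reads could pass the filter through a single group. Oas3 (205 reads in teNK, 14 in hNK) did so through teNK, as did Isg15, Ifit1, Mx1, Oas1a and Cmpk2, all called higher. Isg20 (39 and 377 reads) and Oasl2 (32 and 62 reads) did so through hNK, both called lower. The filter thus added more calls higher than lower. The counts and the median of this list therefore depend partly on the filter. Samd9l, an antiviral factor, averaged 778.4 ± 16.8 CPM in teNK and 310.2 ± 30.6 CPM in hNK (SD, n = 4 each), and Zbp1, a sensor of unusual nucleic acids, rose 3.49-fold. Isg20, an interferon-induced exonuclease, fell, with 0.683 ± 0.196 CPM in teNK and 9.78 ± 2.07 CPM in hNK. Called Schlafen members went in both directions, 2 up, of which Slfn5 entered the test through its teNK reads, and 2 down. Whether they differ from this list was not tested.

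Lymphocyte quiescence factors were set beside Slfn2 for their role. Of 16 tested (18 listed), 11 were called higher and 2 lower, with a median log2 fold change of 0.78, whereas Slfn2 had -0.41. Among all genes tested, 26.4% were called higher and 25.6% lower. Scaling by library totals alone gave 9 of these factors higher and 3 lower. Klf2, a transcription factor that keeps lymphocytes resting, averaged 860.5 ± 77.8 CPM in teNK and 197.0 ± 21.2 CPM in hNK (SD, n = 4 each). Btg2, an antiproliferative gene, rose 3.29-fold, and Foxo3, a transcription factor of resting lymphocytes, rose 1.99-fold. Genes for tRNA nucleases, tRNA ligation and tRNA protection gave 0 calls higher and 8 lower among 16 tested (20 listed, of which 18 symbols were matched), with a median log2 fold change of -0.24. These calls stand beside the same shares over all genes. Scaling by upper quartile gave 10 of this list lower, and scaling by library totals alone gave 11. Rnh1, the inhibitor of pancreatic-type ribonucleases, fell by 0.65 on the log2 scale, to 53.3 ± 3.34 CPM in teNK against 83.3 ± 3.48 CPM in hNK. Nsun2, which methylates tRNAs, fell by 0.46, and Tsen15, a subunit of the tRNA splicing endonuclease, fell by 0.58. Ang, which encodes the tRNA-cutting ribonuclease angiogenin, had 0 reads in both groups. Slfn2 was lower in teNK beside these 8 genes, and a link between them was not tested.

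Protein-coding neighbours within 300 kb of the cluster, 16 genes of which 10 were tested, gave 2 calls higher and 3 lower with a median log2 fold change of -0.05. Heatr9 averaged 108.1 ± 11.4 CPM in teNK and 11.9 ± 3.41 CPM in hNK (SD, n = 4 each), a rise of 3.17 on the log2 scale. Lig3, a DNA ligase, fell by 0.72 on the log2 scale, and Nle1, a ribosome assembly factor, fell by 0.93. These calls, 5 of 10, are close to the share over all genes tested, of which 26.4% were called higher and 25.6% lower.

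**Figure D5:**
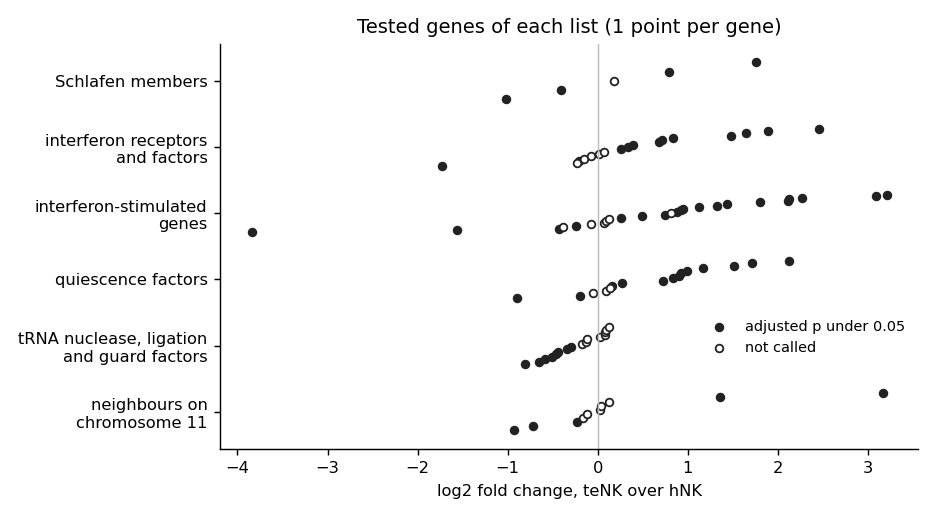
Log2 fold change, teNK over hNK (horizontal axis), of every tested gene in the Schlafen family and in 5 related gene lists, 1 point per gene, filled where edgeR's adjusted p was under 0.05. Filled points of the tRNA list lie below 0 without exception, and those of the Schlafen family lie on both sides, from -1.01 for Slfn3 to 1.75 for Slfn5.

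The genes most like each called member were found by the root mean square difference of centred log2 CPM over the 8 libraries, among 8368 genes (8369 for Slfn5) whose log2 CPM averaged 3 or more. With 2 groups this far apart, the measure is set largely by the difference between the groups. Slfn8 was nearest to Tanc1 (0.0435), Hpcal1 (0.0558) and Map7d1 (0.0569), and Slfn9 stood at rank 2554 with 0.345. Slfn2 was nearest to Mfsd5 (0.0586), Psph (0.0755) and Tbcc (0.0766). Slfn3 was nearest to Peli1 (0.111), Fam84b (0.124) and Bcdin3d (0.125), with Slfn2 at rank 996, and Peli1 is one of the 2 quiescence factors called lower. Slfn5, with its few reads, had no close match: Gzma (0.286), Tsc22d3 (0.301) and Borcs7 (0.306) came first.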

How the data were processed

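RNA from sorted and cultured splenic NK cells was made into libraries with a strand-marking mRNA kit (TruSeq), according to the labels' protocols. The authors deposited 1 table of whole-number read counts per Ensembl gene for each of the 8 libraries, with no normalization. Per the submitters' processing notes, the tools were HISAT2 2.1.0, SAMtools and HTSeq and the build was GRCm38, with no settings. The annotation release, the strand setting and the read length are not given in the sources used here. The 5 summary lines were left out of totals and of every test. Reads assigned to no gene made up 32.3% to 41.2% of a library and ambiguous reads 1.52% to 2.07%, while the other 3 lines held 0, so the treatment of reads with several alignments cannot be seen. Symbols and coordinates came from GENCODE M21, which matched 54809 of 54838 identifiers.

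The counts were filtered with filterByExpr, scaled by TMM and tested with edgeR 4.0.16 (quasi-likelihood test, R 4.3.3) over 13903 genes, with group as the sole term. Ratios of members used the counts plus 0.5 and exact permutation tests in SciPy 1.17.1. Alternatives used DESeq2 1.42.0 and limma 3.58.1. Scripts were tested on simulated data. In 12 pairs of libraries of the same group, chi-square per degree of freedom between counts was 3.51 to 11.3, so none agreed within sampling noise. Counting intervals and floors leave out all other error. The members and the gene lists were chosen with earlier results of these data known. All 7 members are named, with the other Schlafen genes that had reads, the 3 genes of each list with the smallest adjusted p, markers at 0, and the 3 genes nearest to each called member. A few marker genes that this rule also names are given as sums only. Some further interferon-stimulated genes are named for how they passed the filter. The result of 1 further marker list is not reported here.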

Additional observations from a re-analysis of the deposited data

Results flagged for a closer look

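In 36 groups of 4 values, the highest or lowest library was compared with its nearest neighbour by Dixon's criterion, which chance passes about 1 time in 20. For Slfn2, hNK replicate 4 lay far below the other hNK libraries at 88.5 CPM. For Slfn10-ps, hNK replicate 1 lay far above the others at 70.7 CPM. The remaining cases rest on 1 or 2 reads. Slfn4 reached 0.132 CPM in teNK replicate 1, which is 0.0479% of the members' reads there. It reached 0.165 CPM in hNK replicate 3, which is 0.0582% of the members' reads there. Slfn14 had 0.0831 CPM in hNK replicate 1 and no read in the other hNK libraries.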

How the results depend on the processing

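Calls and fold changes were recomputed under 17 alternatives, 8 of which left out 1 library. The directions of Slfn2, Slfn3, Slfn5, Slfn8 and Slfn9 held in all that could be fitted. Log2 fold changes ranged from -0.54 to -0.37 for Slfn2, -1.14 to -0.93 for Slfn3 and 0.66 to 0.84 for Slfn8, each with an adjusted p under 0.05. Slfn5 ranged from 1.41 to 2.19 where it was tested. Since it passed the filter of the main fit through its teNK reads, its p-values are given no weight. Requiring at least 10 reads in every library left 1 member called higher, because Slfn5 then had too few reads to be tested. Slfn9 ranged from 0.05 to 0.27 (adjusted p 0.00982 to 0.655) and passed the threshold, at 0.27, only without hNK replicate 3; the lowest value with 1 library left out was 0.13. Leaving out 1 library gave 2 to 3 members higher, 2 lower, and 3380 to 3766 genes higher and 3203 to 3497 lower. Scaling by library totals alone moved the median of all genes to -0.15 and gave 2709 genes higher and 5114 lower (34.6% of calls higher), against 3665 and 3557 (50.8%). Without any filter, Slfn1 stood at 0.26 on the log2 scale (adjusted p 0.773) and Slfn4 at 0.25 (adjusted p 0.907). With 1 read per library as the minimum, 9 of 15 pairs of members, the 6 above among them, passed the exact permutation test (adjusted p 0.0476). The added pairs that passed all involve Slfn5 with its few hNK reads, while Slfn5 over Slfn8 and every pair with Slfn1 did not pass. All 6 passed with 2 reads added to each count.

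With the replicate number as a replicate block, 3581 genes were higher and 3401 lower, 2 members were higher and 2 lower, and Slfn9 had 0.18 (adjusted p 0.0549). Deviations of libraries with the same number correlated at 0.045, -0.107, 0.145 and 0.0182, and in 3 of 4 cases a library of another number correlated better. The best of several other libraries often exceeds a single value, so this check cannot decide whether the numbers pair the libraries. Depth limits Slfn1 and Slfn4, and the shallowest hNK libraries limit Slfn5.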
